A study of Mus musculus with 12 samples.

Results

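The 6 ileum libraries of a 12-library series were compared here, 3 from TNFdARE mice and 3 from WT mice, with all 46603 genes of the deposited count table as the features. The ileum is the last stretch of the small intestine, and the series' other 6 libraries hold synovium of the same genotypes. Both ileum groups share the organism (Mus musculus), the tissue and the library protocol, and they differ in the Tnf genotype. No treatment is recorded. The sources used here give no strain, age or sex and not the zygosity of the TNFdARE allele. Each library is labelled as a biological replicate, so the libraries were taken as separate animals. Levels are CPM, counts scaled to a common library total after TMM scaling, and 3 values in a row are always replicates 1, 2 and 3 of a genotype. A fold change is TNFdARE over WT on the log2 scale with its standard error (±), and a gene was called, or is said to have risen or fallen, when the adjusted p of edgeR's quasi-likelihood test was under 0.05.

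Tumour necrosis factor (TNF) is a cytokine made mainly by macrophages and lymphocytes. Through its receptors it activates NF-kB in epithelium, stroma and endothelium, and these cells then make chemokines, adhesion molecules and survival factors. The Tnf mRNA carries an AU-rich element in its 3' untranslated region, which decay proteins bind to shorten the life of the mRNA and limit its translation. TNFdARE mice carry a Tnf gene that lacks this element, and they are known to develop inflammation of the terminal ileum and of joints. The core of the element is shown because it is what the allele lacks. It was read from the reference transcript ENSMUST00000025263 (GENCODE vM21), exon 4 of 4, chr17:35199679-35199708 of GRCm38 on the minus strand, 437 bases after the stop codon. Capitals mark the pentamer ATTTA, which occurs 8 times in the transcript of 1639 bases and 5 times, partly overlapping, in these 30 bases.
Tnf: attATTTAttATTTATTTAttATTTATTTA
The sources used here do not give the exact bounds of the deleted interval.

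Tnf (ENSMUSG00000024401, chromosome 17, 35199381 to 35202007) was examined first because it tests the labels. It stood at 80, 16.5 and 45.7 CPM in TNFdARE and at 2.53, 1.33 and 1.56 CPM in WT, and all 3 TNFdARE libraries lay above all 3 WT libraries. The log2 fold change was 4.70 ± 0.68, adjusted p = 0.0404. The TNFdARE libraries were unequal, with replicate 2 the lowest. Over the 16 alternative fits the adjusted p of Tnf lay between 9.98e-17 (DESeq2) and 0.174, and the fold change between 3.53 and 5.12. The call ended with limma-voom (0.0858), on the FPKM values (0.0798 and 0.0793), with no filter on low counts (0.0624), without TNFdARE replicate 3 (0.155) and without WT replicate 1 (0.153), 2 (0.15) or 3 (0.174). The proteins that bind AU-rich elements or otherwise hasten mRNA decay were tested as a list of 11, of which 0 passed (1 and 0 with the block, 3 and 0 without replicate 2, 1 and 0 with DESeq2, 3 and 0 at an unadjusted p under 0.05), with a median of 0.03. Zfp36, the gene of tristetraprolin, which binds the Tnf element, stood at 163, 142 and 181 CPM in TNFdARE and at 192, 149 and 179 CPM in WT (-0.10 ± 0.13, adjusted p = 0.638), and the groups overlapped.

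Library totals lay between 14267834 and 15700665 counts, so 1 count was worth 0.0637 to 0.0701 CPM before scaling, and a count of 0 allows at most 0.210 CPM in the shallowest library. The libraries did not stand at equal distances. On the first principal component of the 1000 most variable genes, which held 75.5% of their variance, TNFdARE replicates 1, 2 and 3 lay at -60.7, -2.62 and -39.4, and WT at 27.8, 39.9 and 35.1. TNFdARE replicate 2 was thus the library of its genotype nearest to WT. Replicate 3 of each genotype had 20870 and 21524 counts of Xist and 0 of 4 Y-linked genes, and the other 4 libraries had at most 5 of Xist, so sex followed the replicate number and was balanced between genotypes. Markers of the ileum were present in every library: the summed level of 14 epithelial markers was 17613, 25982 and 22971 CPM in TNFdARE and 32436, 28766 and 33411 CPM in WT, and Fabp6, the bile acid binding protein of ileal enterocytes, stood at 2082, 1306 and 2340 CPM in TNFdARE and at 1850, 1515 and 2455 CPM in WT.

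Of 15462 genes tested, 637 rose and 242 fell, which is 5.68% of all tested genes, 4.12% upward and 1.57% downward. The increases were larger: 453 of the 637 and 50 of the 242 were at least 2-fold. In each of the 879 called genes the 2 genotypes lay apart without overlap, as did 37.3% of all tested genes, 19.3% upward and 18.1% downward. The adjusted p of every call lay between 0.0305 and 0.05, close to the threshold, and 4716 genes had an unadjusted p under 0.05. DESeq2 called 2692 genes, among them 878 of the 879. With library totals alone in place of TMM the split was 1218 higher and 161 lower, and the median fold change of all genes moved by 0.11. With limma-voom 0 genes passed (smallest adjusted p 0.051, and 4649 at an unadjusted p under 0.05). Without TNFdARE replicate 2 the number rose to 4633 and held 877 of the 879. Without TNFdARE replicate 1 it was 278 and without replicate 3 it was 2. Without WT replicate 1, 2 or 3 it was 0 each, with smallest adjusted p of 0.0548, 0.0728 and 0.174 and 3550, 3533 and 3332 genes at an unadjusted p under 0.05. Every call named below therefore ends when any 1 WT library is left out, and this is not repeated. The labels do not say what the replicate numbers mark, and a fit with the number as a block called 852 genes higher (5.51%) and 276 lower (1.79%).

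The 12 largest increases among called genes of at least moderate abundance were Acod1, S100a8, Il1f9, S100a9, Gpr84, Trem3, Cxcr2, Hp, Cxcl5, Mcemp1, Fpr2 and Saa3. Acod1, the enzyme that makes itaconate in activated macrophages, stood at 131, 4.88 and 37.1 CPM in TNFdARE and at 0.133, 0 and 0 CPM in WT. Summed over the group this was 2753 against 2 counts, so that the count shares stood in a ratio of 1430 (95% exact interval 394.3 to 11778). Such intervals treat the pooled reads of each genotype as independent and leave out the spread between animals. They are therefore not intervals of the genotype effect. Reads that carry no molecular identifier may also repeat 1 molecule, so even the counting error may be larger. Il1f9, the gene of interleukin-36 gamma, had 297 against 1 count (ratio 308, 54.8 to 12190), and Trem3, an activating receptor of myeloid cells, 182 against 1 (189, 33.4 to 7486). Gpr84, a myeloid receptor of medium-chain fatty acids, had 471 against 3 counts (163, 55.3 to 791). S100a8, which with S100a9 forms the neutrophil protein calprotectin, stood at 58.5, 5.02 and 25.6 CPM in TNFdARE and at 0.133, 0 and 0.135 CPM in WT. S100a9 stood at 98.1, 9.02 and 47.0 CPM in TNFdARE and at 0.533, 0.0702 and 0.135 CPM in WT. All of these were close to 0 in WT ileum, and in every one TNFdARE replicate 2 was the lowest of its genotype. Hp, the haemoglobin scavenger haptoglobin, stood at 182, 18.5 and 122 CPM in TNFdARE and at 1.80, 1.26 and 0.474 CPM in WT (6.50 ± 1.06, adjusted p = 0.0404), and Saa3 (ENSMUSG00000040026, chromosome 7, 46711998 to 46715700), a serum amyloid A protein of the acute phase, at 593, 75.0 and 293 CPM in TNFdARE and at 8.33, 5.61 and 4.47 CPM in WT (5.70 ± 0.86, adjusted p = 0.0404). Mcemp1, a membrane protein of mast cells and myeloid cells, rose by 6.13 ± 0.99 and Fpr2, a formyl peptide receptor, by 6.06 ± 1.23.

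**Figure D1:**
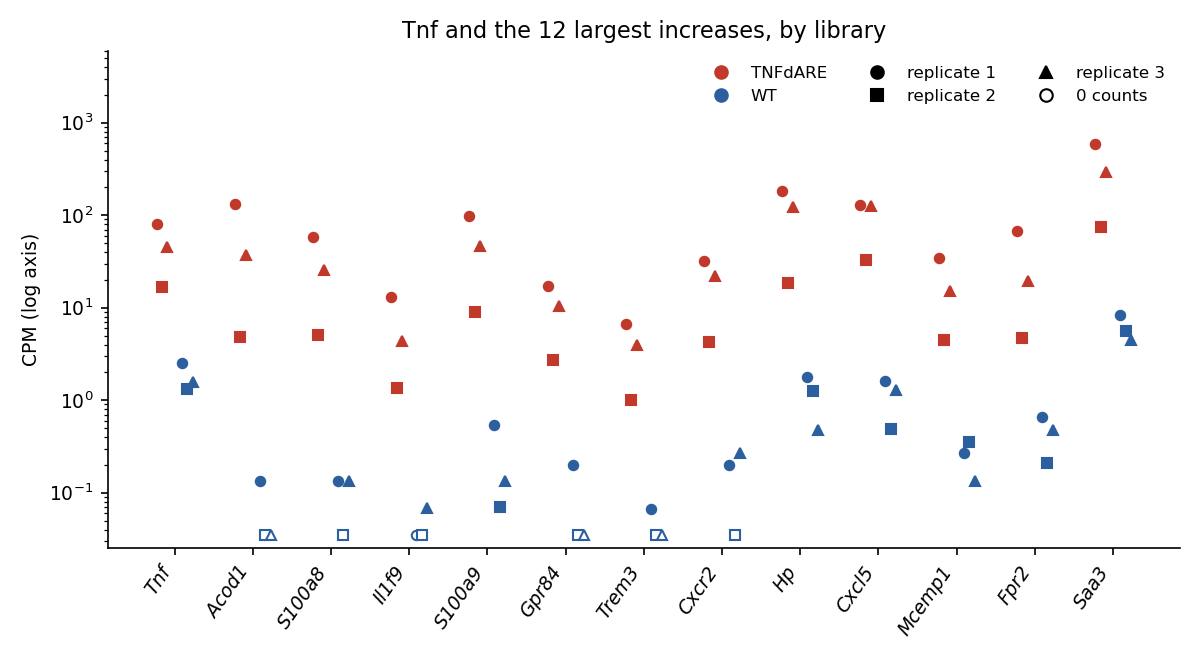
CPM of Tnf and of the 12 largest increases in each ileum library, on a log axis, red for TNFdARE and blue for WT, with the symbol giving the replicate and open symbols at the bottom marking 0 counts. In each of the 13 genes the TNFdARE libraries lie above the WT libraries and TNFdARE replicate 2, the red square, is the lowest of the 3 (Tnf at 80, 16.5 and 45.7 CPM).

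The most abundant increases were of another kind. C3 (ENSMUSG00000024164, chromosome 17, 57203970 to 57228136), the central component of complement, stood at 4005, 1144 and 2582 CPM in TNFdARE and at 124, 76.2 and 93.6 CPM in WT (4.72 ± 0.53, adjusted p = 0.0389). Lyz2, the lysozyme of macrophages and neutrophils, stood at 3443, 575 and 1789 CPM in TNFdARE and at 128, 92.4 and 93.0 CPM in WT (4.21 ± 0.68, adjusted p = 0.0404). Apoe, an apolipoprotein that macrophages also make, rose by 1.62 ± 0.26, and Tmsb4x, an actin-binding peptide abundant in leukocytes, by 0.84 ± 0.18. The other 4 encode proteins of connective tissue: Dcn (0.99 ± 0.15) and Bgn (1.43 ± 0.23), the small proteoglycans decorin and biglycan, and Col1a2 (0.66 ± 0.10) and Col4a1 (0.46 ± 0.08), chains of type I and basement membrane collagen. The call of Col4a1 ended with the block (adjusted p = 0.0517).

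Gene lists are described by how many tested members were called, and the shares to read them against are the 4.12% and 1.57% above. All lists were chosen with earlier results of these data known, so a share above these is a description and not a test. In brackets follow the members higher and lower in the fit with the block and in the fit without TNFdARE replicate 2, for which list counts were added after the data were seen and in which 16.5% of genes were higher and 12.8% lower. Lists with no call also give DESeq2 and the members at an unadjusted p under 0.05 (17.0% and 13.5% of genes). For DESeq2 the shares were 6.90% and 3.96% of 24773 genes with any count. List members come from the 15462 tested genes, so these DESeq2 shares are not a like background for them. The median fold change of all tested genes was -0.002.

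Leukocyte markers were higher in TNFdARE and the summed epithelial markers above were lower. Of 13 leukocyte markers 5 rose, 0 fell and 8 did not pass (9 and 0 with the block, 11 and 0 without replicate 2), with a median of 2.10. Their summed level was 2948, 984 and 1985 CPM in TNFdARE and 506, 367 and 467 CPM in WT. Ptprc (CD45), carried by all leukocytes, stood at 437, 139 and 295 CPM in TNFdARE and at 73.2, 62.9 and 77.4 CPM in WT (2.03 ± 0.41, adjusted p = 0.049), and Itgax (CD11c), of dendritic cells and macrophages, at 272, 109.7 and 223 CPM in TNFdARE and at 35.8, 24.8 and 32.3 CPM in WT (2.70 ± 0.37, adjusted p = 0.0404). Of the 14 epithelial markers 0 passed (1 and 0 with the block, 0 and 5 without replicate 2, 1 and 4 with DESeq2, 1 and 4 at an unadjusted p under 0.05), with a median of -0.29. In a bulk sample fewer cells of a type and less RNA per cell cannot be told apart, and the part of either marker list in the changes below was not tested.

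Among TNF, the lymphotoxins, their receptors and adaptors, 4 rose, 0 fell and 12 did not pass (7 and 0 with the block, 11 and 0 without replicate 2), with a median of 0.74 over 16 tested members. Besides Tnf these were Birc2 (0.70 ± 0.15, adjusted p = 0.049) and Birc3 (1.36 ± 0.19, adjusted p = 0.0404), the ubiquitin ligases cIAP1 and cIAP2 that keep TNF receptor signalling on the survival branch, and Tnip3 (3.80 ± 0.75, adjusted p = 0.0471), a feedback inhibitor that binds A20. Birc3 stood at 182, 108 and 148 CPM in TNFdARE and at 61.7, 54.7 and 53.7 CPM in WT. The receptor gene Tnfrsf1a, widely expressed, stood at 167, 148 and 169 CPM in TNFdARE and at 166, 139 and 141 CPM in WT (0.12 ± 0.10, adjusted p = 0.429), with overlap. Tnfrsf1b, the receptor found mostly on leukocytes, stood at 182, 42.9 and 96.7 CPM in TNFdARE and at 32.7, 26.9 and 31.3 CPM in WT (1.82 ± 0.51, adjusted p = 0.0807), without overlap. Tnfaip3, the gene of A20, had 1.23 ± 0.32 (adjusted p = 0.0729). Of 15 NF-kB subunits and inhibitors 3 rose, 0 fell and 12 did not pass (5 and 0 with the block, 12 and 0 without replicate 2), with a median of 0.50. They were Nfkbie, an inhibitor of the IkB family (2.65 ± 0.42, adjusted p = 0.0404), Nfkb2, the precursor of p52 (1.54 ± 0.30, adjusted p = 0.0461), and Rel (1.14 ± 0.24, adjusted p = 0.0497, and 0.0593 with the block). Nfkbie stood at 81, 26.5 and 55.4 CPM in TNFdARE and at 9.67, 7.86 and 8.40 CPM in WT. The 23 tested members of the list of apoptosis, necroptosis and pyroptosis genes had a median of 0.03, and 0 passed (0 and 2 with the block, 5 and 5 without replicate 2, 3 and 3 with DESeq2, 5 and 4 at an unadjusted p under 0.05). Genes of these processes outside the list were called, and some are named after their values were seen. Mefv, Nlrp1a, Bcl2a1b and Bcl2l11 were higher, and Bad and Bcl2l15 were lower. Nlrp3, an inflammasome sensor of myeloid cells, stood at 25.7, 3.12 and 14.6 CPM in TNFdARE and at 0.867, 1.12 and 0.745 CPM in WT (3.98 ± 0.82, adjusted p = 0.0511), while Casp8, Ripk3 and Mlkl, which carry TNF receptor death signals, had -0.12, 0.12 and 0.29 (adjusted p = 0.472, 0.651 and 0.597).

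Of the 12 called members of the TNF, NF-kB and chemokine lists, 10 have a promoter in the RefSeq table (GRCm38.p6, 250 bases before to 50 after the start), and in 6 of these the NF-kB consensus was found on either strand: Ccl20, Cxcl1, Nfkb2, Nfkbie, Rel and Tnip3. Over all tested genes with a promoter in the table, 6.42% of 11505 held a match, against 10.2% of 453 called higher and 7.45% of 188 called lower. The 150 bases before the start of 4 of the 6 are shown, since these genes moved together and their products are the attractants and feedback inhibitors of the pathway. Capitals mark the matched letters, 5' to 3' on the gene's strand. The windows are chr5:90891095-90891244 (Cxcl1), chr1:83116616-83116765 (Ccl20), chr17:45555550-45555699 (Nfkbie) and chr6:65590248-65590397 (Tnip3), all on the plus strand.
Cxcl1: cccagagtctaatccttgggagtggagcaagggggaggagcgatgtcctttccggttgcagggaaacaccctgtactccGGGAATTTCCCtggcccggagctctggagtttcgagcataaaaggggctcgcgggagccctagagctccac
Ccl20: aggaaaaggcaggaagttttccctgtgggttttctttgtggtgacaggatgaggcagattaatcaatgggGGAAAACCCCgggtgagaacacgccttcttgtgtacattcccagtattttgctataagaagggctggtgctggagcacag
Nfkbie: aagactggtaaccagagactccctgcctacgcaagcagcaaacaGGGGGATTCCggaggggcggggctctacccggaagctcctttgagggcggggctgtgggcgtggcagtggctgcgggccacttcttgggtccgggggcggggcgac
Tnip3: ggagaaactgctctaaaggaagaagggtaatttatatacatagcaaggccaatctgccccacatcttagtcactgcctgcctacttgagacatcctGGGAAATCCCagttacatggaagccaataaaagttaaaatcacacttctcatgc
A match describes the letters of the window and is not evidence of binding.

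Neutrophil-attracting chemokines and their receptors had the highest list median. Of 4 tested members 3 rose, 0 fell and 1 did not pass (4 and 0 with the block, 4 and 0 without replicate 2), with a median of 5.34. Cxcl5 (ENSMUSG00000029371, chromosome 5, 90759360 to 90761624), made by epithelium and stroma, stood at 129.7, 32.5 and 124 CPM in TNFdARE and at 1.60, 0.491 and 1.29 CPM in WT (6.39 ± 0.75, adjusted p = 0.0389). Cxcl1 stood at 14.2, 3.39 and 11.7 CPM in TNFdARE and at 1.07, 0.140 and 0.339 CPM in WT (4.21 ± 0.81, adjusted p = 0.0459), and the shared receptor Cxcr2, carried by neutrophils, at 32.2, 4.27 and 21.8 CPM in TNFdARE and at 0.200, 0 and 0.271 CPM in WT, which is 909 against 7 counts (ratio 134, 65.0 to 335.5). Cxcl2 stood at 7.86, 1.83 and 6.64 CPM in TNFdARE and at 0.667, 0 and 0.135 CPM in WT and did not pass (4.29 ± 0.96, adjusted p = 0.0531). Among 17 tested neutrophil genes 10 rose, 0 fell and 7 did not pass (15 and 0 with the block, 16 and 0 without replicate 2), with a median of 4.97. The summed level of the list was 1270, 316 and 780.0 CPM in TNFdARE and 123, 61.5 and 90 CPM in WT. Mmp9 (ENSMUSG00000017737, chromosome 2, 164940780 to 164955850), a gelatinase of neutrophil granules, stood at 142, 81.6 and 101 CPM in TNFdARE and at 7.73, 5.12 and 7.52 CPM in WT (3.99 ± 0.27, adjusted p = 0.0305). Csf3r, the receptor for granulocyte colony-stimulating factor, stood at 231, 53.7 and 138 CPM in TNFdARE and at 5.73, 3.72 and 3.12 CPM in WT (5.07 ± 0.64, adjusted p = 0.0389). Trem1, an amplifier of inflammation on neutrophils and monocytes, stood at 17.3, 4.07 and 15.9 CPM in TNFdARE and at 0.333, 0.491 and 0.339 CPM in WT (4.97 ± 0.68, adjusted p = 0.0404). In each of these genes the lowest TNFdARE library was several times the highest WT library. Ltf, the lactoferrin of secondary granules, did not share this pattern (-0.28 ± 0.48, adjusted p = 0.721). Colony-stimulating factors and receptors followed: of 8 tested 6 rose, 0 fell and 2 did not pass (7 and 0 with the block, 7 and 1 without replicate 2), with a median of 2.22. The ligands Csf1 (1.88 ± 0.25, adjusted p = 0.0389) and Il34 (1.13 ± 0.21, adjusted p = 0.041), both of which act on the receptor Csf1r and sustain macrophages, rose together with Csf1r (2.57 ± 0.39, adjusted p = 0.0404), and Csf2rb, the shared beta chain of the receptors for GM-CSF, IL-3 and IL-5, stood at 258, 79.7 and 208 CPM in TNFdARE and at 22.9, 12.1 and 17.5 CPM in WT (3.38 ± 0.50, adjusted p = 0.0404).

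The CC chemokines and receptors were less uniform. Of 18 tested 2 rose, 0 fell and 16 did not pass (5 and 0 with the block, 9 and 3 without replicate 2), with a median of 1.44. Ccl2, which draws monocytes, stood at 45.2, 15.3 and 26.4 CPM in TNFdARE and at 2.73, 1.26 and 1.22 CPM in WT (4.05 ± 0.54, adjusted p = 0.0404). Ccl20, made by the epithelium over lymphoid follicles, stood at 32.8, 12.5 and 18.8 CPM in TNFdARE and at 3.67, 2.32 and 2.10 CPM in WT (2.98 ± 0.42, adjusted p = 0.0404). Its receptor Ccr6 had 3.15 ± 0.81 and Ccr2, the receptor of Ccl2, 2.80 ± 0.58 (adjusted p = 0.0698 and 0.0515). Chemokines and receptors that place cells in lymphoid tissue had 3 called of 8 (3 and 0 with the block, 6 and 0 without replicate 2) and a median of 2.09. Cxcl13, which draws B cells into follicles, stood at 53.8, 15.8 and 25.5 CPM in TNFdARE and at 4.27, 3.09 and 4.27 CPM in WT (3.03 ± 0.50, adjusted p = 0.0404), Cxcr4 rose by 2.85 ± 0.56, and Gpr183, an oxysterol receptor that positions lymphocytes, by 1.80 ± 0.39. Among 19 endothelial adhesion and vessel genes 2 rose, 1 fell and 16 did not pass (4 and 1 with the block, 8 and 1 without replicate 2), with a median of 0.32. Icam1, the ligand of leukocyte integrins and a known NF-kB target, stood at 155, 53.6 and 107 CPM in TNFdARE and at 18.9, 13.3 and 15.2 CPM in WT (2.73 ± 0.41, adjusted p = 0.0404), Pecam1 rose by 0.52 ± 0.10, and Flt1, a receptor of VEGF, changed by -0.54 ± 0.11.

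Interleukin-1 family members rose on the agonist and the antagonist side. Of 15 tested members 7 rose, 1 fell and 7 did not pass (8 and 1 with the block, 11 and 1 without replicate 2), with a median of 0.99. The agonist Il1b (ENSMUSG00000027398, chromosome 2, 129364570 to 129371139) stood at 151, 22.8 and 92.9 CPM in TNFdARE and at 4.27, 1.61 and 2.78 CPM in WT (4.93 ± 0.82, adjusted p = 0.0407). Il1a, which acts on the same receptor, stood at 21.1, 3.87 and 13.2 CPM in TNFdARE and at 0.667, 0.0702 and 0.677 CPM in WT (4.72 ± 0.87, adjusted p = 0.0447). The antagonist Il1rn (3.95 ± 0.54, adjusted p = 0.0404) and the decoy receptor Il1r2 (3.49 ± 0.63, adjusted p = 0.0445), both inhibitors of the same pathway, rose as well. Il1rl2, the receptor of the IL-36 cytokines, stood at 12.1, 13.8 and 17.1 CPM in TNFdARE and at 8.20, 8.14 and 6.50 CPM in WT (0.91 ± 0.18, adjusted p = 0.0433, and 0.06 with the block). Il18, made constitutively by gut epithelium, went the other way and stood at 4.18, 5.63 and 5.08 CPM in TNFdARE and at 15.1, 11.2 and 12.3 CPM in WT (-1.37 ± 0.18, adjusted p = 0.0389). The signalling receptor Il1r1 had 0.27 ± 0.16 (adjusted p = 0.276). Of 10 tested members of the interleukin-6 family 3 rose, 0 fell and 7 did not pass (5 and 0 with the block, 6 and 0 without replicate 2), with a median of 0.75: Ebi3, a subunit of IL-27 and IL-35 (2.17 ± 0.37, adjusted p = 0.0404), and the receptor chains Osmr (1.10 ± 0.19, adjusted p = 0.0404) and Il6st, the shared gp130 (0.61 ± 0.11, adjusted p = 0.041). Socs3, a feedback inhibitor of this pathway, had 0.02 ± 0.32 (adjusted p = 0.969). Of 5 tested members of the IL-10, IL-20 and IL-22 families 3 rose, 0 fell and 2 did not pass (3 and 0 with the block, 4 and 0 without replicate 2), with a median of 1.35. Il22ra2, a soluble receptor that neutralises IL-22, stood at 77.8, 30.8 and 70.5 CPM in TNFdARE and at 5.40, 3.72 and 7.18 CPM in WT (3.45 ± 0.44, adjusted p = 0.0389). Il10ra stood at 94.2, 31.3 and 67.2 CPM in TNFdARE and at 12.1, 9.19 and 10.1 CPM in WT (2.62 ± 0.42, adjusted p = 0.0404), and Il20rb rose by 1.35 ± 0.26. Il22ra1, the epithelial IL-22 receptor, had -0.19 ± 0.22 (adjusted p = 0.586).

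**Figure D2:**
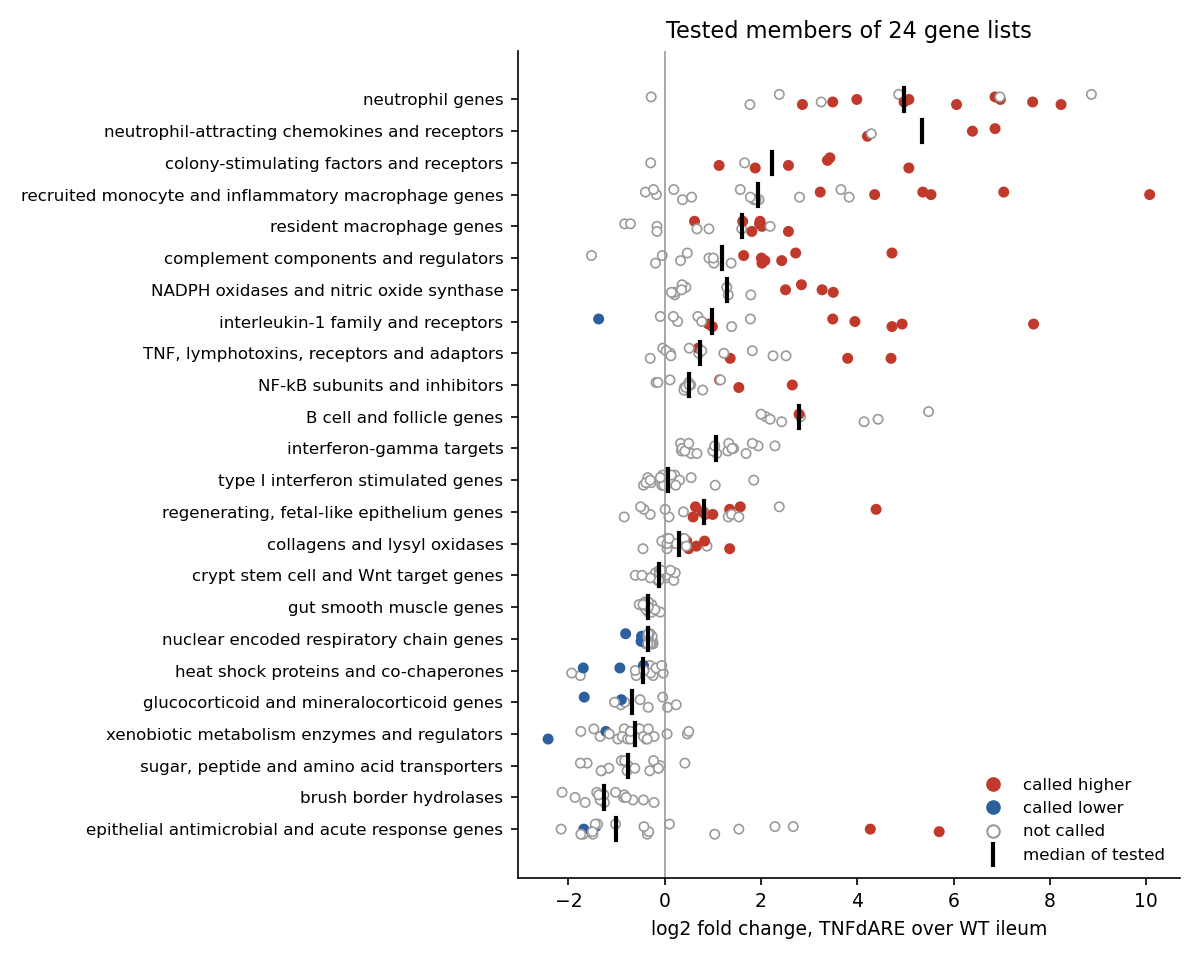
Log2 fold changes of the tested members of 24 gene lists, TNFdARE over WT ileum, with filled points for called genes, open points for genes that did not pass and a black bar at the list median. Myeloid lists lie to the right of 0 (neutrophil genes, median 4.97) and lists of absorptive functions to the left (brush border hydrolases, median -1.25, with 0 called).

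Macrophage genes were called higher in both lists that cover them. Of 15 genes of resident macrophages 7 rose, 0 fell and 8 did not pass (9 and 0 with the block, 10 and 2 without replicate 2), with a median of 1.60. C1qa, C1qb and C1qc, the chains of complement C1q, rose by 2.02 ± 0.34, 1.97 ± 0.35 and 1.98 ± 0.30, and Cx3cr1, the fractalkine receptor of gut macrophages, stood at 84.7, 39.3 and 59.5 CPM in TNFdARE and at 21.2, 14.9 and 16.3 CPM in WT (1.81 ± 0.30, adjusted p = 0.0404). Cd163 and Folr2, scavenger and folate receptors of resident macrophages, had -0.83 ± 0.33 and -0.16 ± 0.47 (adjusted p = 0.151 and 0.842). Among 20 genes of recruited monocytes and inflammatory macrophages 6 rose, 0 fell and 14 did not pass (7 and 0 with the block, 15 and 0 without replicate 2), with a median of 1.93. Mmp12, the macrophage elastase, stood at 29.9, 4.34 and 17.1 CPM in TNFdARE and at 0.467, 0.351 and 0.406 CPM in WT (5.36 ± 0.85, adjusted p = 0.0404). Clec5a, a myeloid lectin receptor, stood at 52.0, 9.49 and 31.2 CPM in TNFdARE and at 1.60, 1.26 and 1.63 CPM in WT (4.36 ± 0.69, adjusted p = 0.0404). Gpnmb, a glycoprotein of lipid-laden macrophages, stood at 149, 11 and 51.3 CPM in TNFdARE and at 1.53, 1.47 and 1.56 CPM in WT (5.53 ± 1.07, adjusted p = 0.0463). Replicate 1 was the highest library in all 3. Arg1 had 0.19 ± 0.43 (adjusted p = 0.795). A list of paired myeloid receptors and their adaptor, drawn up after the values were seen, had 14 of 20 called, all higher (15 and 0 with the block, 19 and 0 without replicate 2). It includes Cd300a, an inhibitory receptor (2.74 ± 0.31, adjusted p = 0.0389), Pilra (3.28 ± 0.48, adjusted p = 0.0404) and the adaptor Tyrobp, also called DAP12 (2.69 ± 0.49, adjusted p = 0.0445). Several of these receptors have near-identical copies, as do the immunoglobulin, defensin, Reg, Btnl and class I genes below, so reads may be divided among copies and single values are uncertain.

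Complement is the serum cascade that tags microbes and draws in phagocytes, and gut epithelium, stroma and macrophages make some of it. Of 16 tested components and regulators 7 rose, 0 fell and 9 did not pass (9 and 0 with the block, 12 and 1 without replicate 2), with a median of 1.20. The 2 proteases of the first complex rose with C1qa. C1s1 stood at 474, 260.0 and 414 CPM in TNFdARE and at 109, 86 and 90 CPM in WT (2.01 ± 0.24, adjusted p = 0.0389). C1ra stood at 196, 84 and 160.4 CPM in TNFdARE and at 30.7, 23.7 and 27.6 CPM in WT (2.43 ± 0.33, adjusted p = 0.0404). Serping1, which inhibits those proteases, stood at 475, 252 and 401 CPM in TNFdARE and at 135, 115 and 112 CPM in WT (1.64 ± 0.24, adjusted p = 0.0404). Cfp, the stabiliser properdin, rose by 2.72 ± 0.46 and C5ar1, the anaphylatoxin receptor, by 2.08 ± 0.36. Among 13 NADPH oxidase and nitric oxide synthase genes 4 rose, 0 fell and 9 did not pass (6 and 0 with the block, 8 and 0 without replicate 2), with a median of 1.29. These were 3 subunits of the phagocyte oxidase, Cybb (3.50 ± 0.64, adjusted p = 0.0445, and 0.0525 with the block), Ncf1 (3.27 ± 0.56, adjusted p = 0.0412) and Ncf4 (2.84 ± 0.49, adjusted p = 0.0412), and Nox1, an oxidase of gut epithelium, which stood at 149.7, 47.9 and 117 CPM in TNFdARE and at 24.2, 18.0 and 13.1 CPM in WT (2.51 ± 0.47, adjusted p = 0.0449). Duox2, the dual oxidase of the epithelium, stood at 1017, 804 and 1300 CPM in TNFdARE and at 1157, 599 and 937 CPM in WT. Nos2, the inducible nitric oxide synthase, stood at 610.1, 432 and 691 CPM in TNFdARE and at 709, 236 and 628 CPM in WT. WT replicate 2 was the lowest library for both, the groups overlapped, and the fold changes were 0.21 ± 0.28 and 0.14 ± 0.42 (adjusted p = 0.639 and 0.851). Among 12 genes of itaconate, arginine and tryptophan metabolism 3 rose, 0 fell and 9 did not pass (4 and 0 with the block, 5 and 0 without replicate 2), with a median of 0.32: Acod1, Kynu, a kynurenine enzyme (2.37 ± 0.36, adjusted p = 0.0404), and Asl, an enzyme of arginine synthesis (0.38 ± 0.08, adjusted p = 0.0459, and 0.0581 with the block). Of 8 mast cell and eosinophil genes 3 rose, 0 fell and 5 did not pass (3 and 0 with the block, 5 and 0 without replicate 2), with a median of 1.39. The 3 are eosinophil or alternatively activated macrophage genes, Siglecf (1.44 ± 0.21, adjusted p = 0.0404), Ear2 (2.43 ± 0.46, adjusted p = 0.0412) and Alox15 (2.13 ± 0.46, adjusted p = 0.0492), whereas Mcpt1, a protease of mucosal mast cells, had -0.03 ± 0.63 (adjusted p = 0.978).

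The lymphocyte lists gave few calls. Of 9 B cell and follicle genes 1 rose, 0 fell and 8 did not pass (2 and 0 with the block, 9 and 0 without replicate 2), with a median of 2.79. Spib, which encodes an Ets factor of B cells, plasmacytoid dendritic cells and M cells, was the called gene (2.79 ± 0.57, adjusted p = 0.0497). The CD20 gene Ms4a1 stood at 28.2, 0.678 and 6.71 CPM in TNFdARE and at 0.533, 0.421 and 0.677 CPM in WT, and it did not pass (4.43 ± 1.35, adjusted p = 0.0956). TNFdARE replicate 2 lay at the level of the highest WT library, while replicate 1 was far above. Cr2, the complement receptor of follicular dendritic and B cells, had 501 against 10 counts (ratio 51.9, 28.0 to 109) and did not pass either (adjusted p = 0.066). Every tested B cell gene had a positive fold change. Of 14 listed genes of immunoglobulin constant regions and secretion 1 rose, 0 fell and 13 did not pass (3 and 0 with the block, 9 and 1 without replicate 2), with a median of 1.31. Ighg1 stood at 295, 10.5 and 93.7 CPM in TNFdARE and at 4.87, 1.75 and 2.91 CPM in WT (5.38 ± 1.29, adjusted p = 0.0624), whereas Igha, the isotype of the gut, stood at 11725, 4887 and 8698 CPM in TNFdARE and at 4521, 2978 and 5133 CPM in WT (1.00 ± 0.36, adjusted p = 0.123). The called member was Iglc2, a lambda light chain (1.33 ± 0.21, adjusted p = 0.0404). Variable and joining segments are not in this list, and several were called higher. Their copies share sequence, so single segments are not named. Cd3e, a chain of the T cell receptor complex, stood at 10.2, 4.00 and 12.1 CPM in TNFdARE and at 10.6, 6.25 and 9.08 CPM in WT (0.02 ± 0.42, adjusted p = 0.976). Of 16 intraepithelial lymphocyte and cytotoxic genes 0 rose, 1 fell and 15 did not pass (0 and 1 with the block, 4 and 1 without replicate 2), with a median of -0.10. The gene that fell was Trdc, the constant region of the gamma-delta receptor's delta chain, at 2.33, 2.31 and 1.76 CPM in TNFdARE and at 7.0, 4.91 and 4.88 CPM in WT (-1.39 ± 0.24, adjusted p = 0.0404). Among 10 genes of M cells and the epithelium over follicles 3 rose, 0 fell and 7 did not pass (4 and 0 with the block, 9 and 0 without replicate 2), with a median of 2.11, and all 3 are also expressed by leukocytes (Spib, Ccl20 and Aif1). Some lymphocyte genes outside the lists were called and are named after their values were seen. Foxp3, which defines regulatory T cells, rose by 3.13 ± 0.56 (adjusted p = 0.041), Il2ra, a chain of the IL-2 receptor, by 1.25 ± 0.23 (adjusted p = 0.0412), and Cd28, a costimulatory receptor of T cells, by 1.37 ± 0.21 (adjusted p = 0.0404). Gp2, the defining receptor of mature M cells, had 39 against 6 counts (ratio 6.73, 2.83 to 19.5) and did not pass (adjusted p = 0.0775).

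No member of the 2 interferon lists was called. Of 21 type I interferon stimulated genes 0 passed (0 and 0 with the block, 5 and 0 without replicate 2, 1 and 0 with DESeq2, 0 and 0 at an unadjusted p under 0.05), with a median of 0.07. Isg15, a ubiquitin-like protein, stood at 27.7, 6.92 and 26.8 CPM in TNFdARE and at 18.9, 51.4 and 12.8 CPM in WT. Oasl2, of the oligoadenylate synthase family, stood at 255, 67.4 and 252 CPM in TNFdARE and at 145, 318 and 119.5 CPM in WT. In both, TNFdARE replicate 2 was the lowest library and WT replicate 2 the highest, and the groups overlapped. Of 20 interferon-gamma targets 0 passed (3 and 0 with the block, 10 and 0 without replicate 2, 6 and 0 with DESeq2, 7 and 0 at an unadjusted p under 0.05), with a median of 1.06. All 20 had a positive fold change, and Gbp5, a guanylate-binding protein, stood at 123, 20.6 and 58.3 CPM in TNFdARE and at 17.5, 9.54 and 14.3 CPM in WT (2.29 ± 0.65, adjusted p = 0.0858). Ifitm1, an interferon-inducible membrane protein outside both lists and named after its values were seen, rose by 2.34 ± 0.29 (adjusted p = 0.0389). Other interferon-inducible genes outside both lists were called in either direction, for instance Ifitm6 and Ifi30 higher and Plscr1 and Batf2 lower. Of 19 listed antigen presentation genes 0 rose, 3 fell and 16 did not pass (5 and 3 with the block, 10 and 3 without replicate 2), with a median of 0.54. H2-Ab1, a class II chain, stood at 1511, 417 and 1139 CPM in TNFdARE and at 519.9, 231 and 562 CPM in WT (1.22 ± 0.55, adjusted p = 0.195), and the 3 that fell, H2-Q1, H2-Q2 and H2-T3, are nonclassical class I genes beside Tnf, described with that region below. H2-DMb2, a class II peptide-loading chain that is not in the list and was named after its values were seen, rose by 3.01 ± 0.58 (adjusted p = 0.0459).

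Antimicrobial and acute response genes were called in both directions, while 14 of the 21 tested had a negative fold change. Of 21 antimicrobial and acute response genes 2 rose, 2 fell and 17 did not pass (2 and 2 with the block, 4 and 7 without replicate 2), with a median of -1.02. Lcn2, the siderophore-binding lipocalin of neutrophils and inflamed epithelium, stood at 69.8, 8.14 and 38.4 CPM in TNFdARE and at 2.00, 1.89 and 2.10 CPM in WT (4.27 ± 0.82, adjusted p = 0.0461). Reg3g (ENSMUSG00000030017, chromosome 6, 78466269 to 78468872), a bactericidal lectin of enterocytes and Paneth cells, fell from 10139, 6515 and 6687 CPM in WT to 1828, 3640 and 3224 CPM (-1.43 ± 0.31, adjusted p = 0.0498, and 0.0803 with the block). Reg3b stood at 1209, 6298 and 3172 CPM in TNFdARE and at 18656, 14098 and 14643 CPM in WT without overlap but did not pass (-2.15 ± 0.57, adjusted p = 0.0717). The Paneth cell lysozyme Lyz1 stood at 678, 2783 and 1577 CPM in TNFdARE and at 5078, 3619 and 5638 CPM in WT (-1.51 ± 0.51, adjusted p = 0.114). The summed level of this list was 12276, 22433 and 18823 CPM in TNFdARE and 44730, 36377 and 36721 CPM in WT. Of 21 genes of the regenerating, fetal-like epithelium 8 rose, 0 fell and 13 did not pass (8 and 0 with the block, 14 and 1 without replicate 2), with a median of 0.82. Clu, which marks a revival state of the crypt but is also made by stroma, stood at 945, 208 and 749 CPM in TNFdARE and at 35.3, 25.2 and 29.9 CPM in WT (4.39 ± 0.60, adjusted p = 0.0404). Plaur, the urokinase receptor, stood at 24.1, 15.1 and 26.8 CPM in TNFdARE and at 7.80, 6.95 and 7.38 CPM in WT (1.57 ± 0.22, adjusted p = 0.0389). Krt7 stood at 235, 214 and 257 CPM in TNFdARE and at 162, 158 and 149 CPM in WT (0.59 ± 0.09, adjusted p = 0.0404). Ly6a, the defining gene of this state, had 0.09 ± 0.34 (adjusted p = 0.887). Laminin chains of the epithelial basement membrane moved evenly over the 3 TNFdARE libraries. Lama3 stood at 343, 346 and 353 CPM in TNFdARE and at 118, 167 and 125 CPM in WT (1.35 ± 0.14, adjusted p = 0.0389). Lamb3 stood at 340.1, 293 and 320.2 CPM in TNFdARE and at 163, 231 and 159 CPM in WT (0.78 ± 0.16, adjusted p = 0.0459, and 0.0556 with the block). In a list of laminin and hemidesmosome genes drawn up after the values were seen, 5 rose and 1 fell of 15 (5 and 0 with the block, 6 and 2 without replicate 2). Lama5 and Lamc1, chains of other epithelial laminins, rose by 0.63 ± 0.10 and 0.55 ± 0.07, and the member that fell was the integrin chain Itga6 (-0.38 ± 0.07, adjusted p = 0.0412, and 0.0551 with the block).

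Stem cell, proliferation and junction genes gave few calls. Of 18 crypt stem cell and Wnt target genes 0 passed (0 and 0 with the block, 0 and 3 without replicate 2, 0 and 1 with DESeq2, 0 and 2 at an unadjusted p under 0.05), with a median of -0.11. Lgr5, the receptor that marks crypt stem cells, stood at 26, 49.4 and 43.7 CPM in TNFdARE and at 45.2, 37.6 and 48.7 CPM in WT. Olfm4 stood at 348, 611 and 534 CPM in TNFdARE and at 515, 447 and 488 CPM in WT, and both overlapped between genotypes. Of 20 cell cycle genes 0 rose, 1 fell and 19 did not pass (0 and 0 with the block, 0 and 3 without replicate 2), with a median of -0.14. Mki67 stood at 311, 294 and 288 CPM in TNFdARE and at 290.3, 333 and 318 CPM in WT (-0.08 ± 0.08, adjusted p = 0.558), and the member that fell was Tyms, the thymidylate synthase (-0.42 ± 0.08, adjusted p = 0.0425, and 0.0587 with the block). Of 3 tested genes of pyloric-type glands 0 passed (0 and 0 with the block, 1 and 0 without replicate 2, 1 and 0 with DESeq2, 1 and 0 at an unadjusted p under 0.05), with a median of 0.32. The other 12 listed were not tested. Of 18 tight junction genes 1 rose, 0 fell and 17 did not pass (1 and 0 with the block, 2 and 7 without replicate 2), with a median of -0.18. Cldn1 (ENSMUSG00000022512, chromosome 16, 26356642 to 26371841) stood at 3.44, 2.78 and 2.85 CPM in TNFdARE and at 0.733, 0.281 and 0.339 CPM in WT (2.72 ± 0.37, adjusted p = 0.0389), a low level that was still even over the replicates. Of 15 genes that mark proximal or distal position along the bowel 0 rose, 1 fell and 14 did not pass (0 and 3 with the block, 1 and 7 without replicate 2), with a median of -0.38. The gene that fell was Cdx1, a homeobox factor of intestinal identity (-0.61 ± 0.10, adjusted p = 0.0404), and Gata4, a factor of the proximal bowel, had 1.89 ± 0.60 (adjusted p = 0.0971). Of 14 enteroendocrine hormones and granins 0 passed (0 and 0 with the block, 0 and 7 without replicate 2, 0 and 3 with DESeq2, 0 and 6 at an unadjusted p under 0.05), with a median of -0.51.

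Most listed genes of digestion and absorption did not pass the test. Of 15 brush border hydrolases 0 passed (0 and 1 with the block, 0 and 14 without replicate 2, 0 and 10 with DESeq2, 0 and 12 at an unadjusted p under 0.05), with a median of -1.25. All 15 had a negative fold change. Anpep, the aminopeptidase N that is the most abundant of them, stood at 2094, 5979 and 3991 CPM in TNFdARE and at 9754, 9078 and 10045 CPM in WT (-1.26 ± 0.36, adjusted p = 0.0802). Sis, the sucrase-isomaltase, stood at 94.9, 620.4 and 224 CPM in TNFdARE and at 813, 1087 and 1041 CPM in WT (-1.65 ± 0.66, adjusted p = 0.158). In both, TNFdARE replicate 2 was the highest of its genotype and still below every WT library. Of 17 sugar, peptide and amino acid transporters 0 passed (0 and 1 with the block, 1 and 11 without replicate 2, 1 and 7 with DESeq2, 1 and 7 at an unadjusted p under 0.05), with a median of -0.76. The glucose carrier Slc5a1 stood at 223, 551 and 388 CPM in TNFdARE and at 946, 887 and 1041 CPM in WT (-1.31 ± 0.31, adjusted p = 0.0595). Sugar and amino acid carriers outside the list were called in either direction, and some are named after their values were seen. Slc5a9 and Slc16a10 were lower, and Slc2a6 and Slc36a2 were higher. Of 8 ileal bile acid genes 0 passed (1 and 0 with the block, 0 and 4 without replicate 2, 1 and 4 with DESeq2, 1 and 4 at an unadjusted p under 0.05), with a median of -0.31. The bile acid importer Slc10a2 stood at 62.8, 209 and 94.8 CPM in TNFdARE and at 359, 369.6 and 436 CPM in WT (-1.67 ± 0.44, adjusted p = 0.0751), while Fgf15, the hormone that the ileum sends to the liver on bile acid uptake, stood at 95.3, 63.1 and 244 CPM in TNFdARE and at 14.1, 8.07 and 37.9 CPM in WT (2.74 ± 0.76, adjusted p = 0.0804). Both were without overlap. Of 20 genes of apolipoproteins and chylomicron assembly 1 rose, 1 fell and 18 did not pass (1 and 1 with the block, 3 and 10 without replicate 2), with a median of -0.34. Mttp, which loads lipid onto apolipoprotein B, stood at 198, 367 and 277 CPM in TNFdARE and at 588, 584 and 665 CPM in WT (-1.13 ± 0.22, adjusted p = 0.0447). Dgat2, a triglyceride enzyme, stood at 139, 121 and 150.3 CPM in TNFdARE and at 90.4, 81.8 and 92.7 CPM in WT (0.63 ± 0.10, adjusted p = 0.0404).

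**Figure D3:**
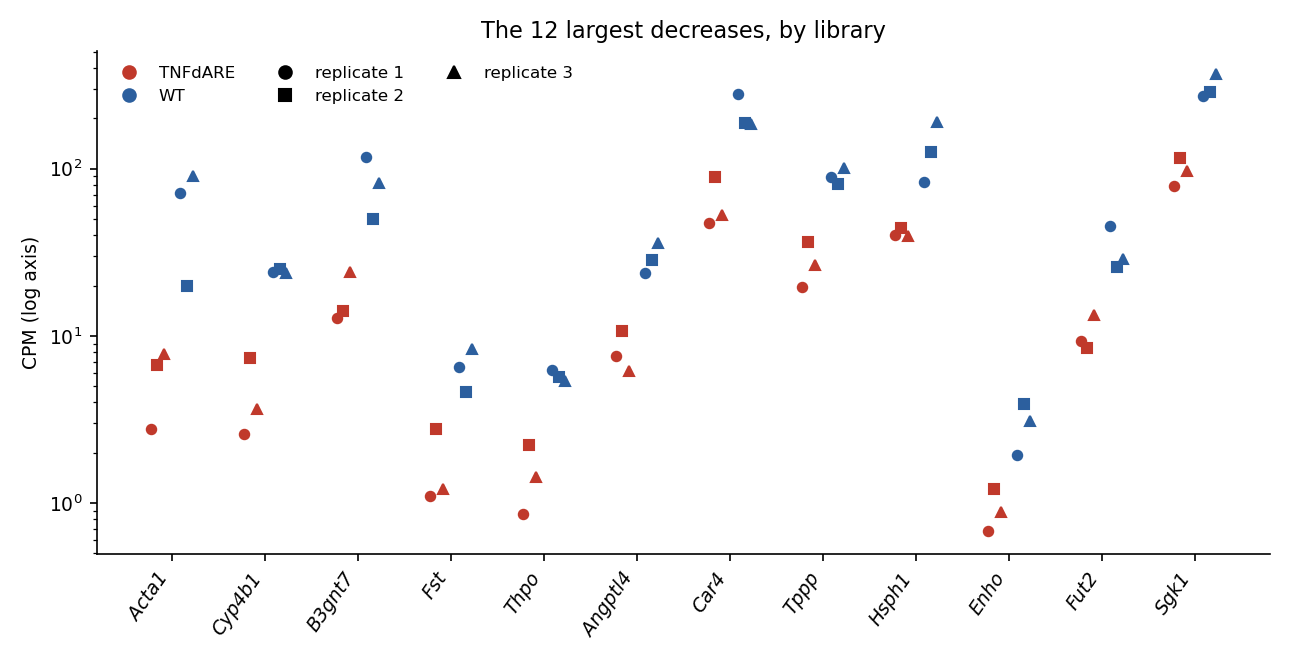
CPM in each ileum library of the 12 largest decreases among called genes of at least moderate abundance, with predicted genes left out. The axis is logarithmic, red marks TNFdARE and blue WT, and the symbol gives the replicate. No TNFdARE library reaches a WT library in any of the 12 genes (Sgk1 at 79.1, 115 and 97.2 against 272, 289 and 371 CPM).

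Among called genes of at least moderate abundance, with predicted genes left out, the largest decreases were in Acta1, Cyp4b1, B3gnt7, Fst, Thpo, Angptl4, Car4, Tppp, Hsph1, Enho, Fut2 and Sgk1. Cyp4b1, a cytochrome P450 that acts on fatty acids and xenobiotics, stood at 2.58, 7.39 and 3.66 CPM in TNFdARE and at 24.1, 25 and 23.9 CPM in WT (-2.42 ± 0.37, adjusted p = 0.0404). B3gnt7, a glycosyltransferase that extends keratan sulfate and mucin-type chains, stood at 12.8, 14.1 and 24.1 CPM in TNFdARE and at 118, 50 and 82.1 CPM in WT (-2.29 ± 0.40, adjusted p = 0.0412). Angptl4, an inhibitor of lipoprotein lipase, stood at 7.55, 10.6 and 6.17 CPM in TNFdARE and at 23.7, 28.6 and 36.1 CPM in WT (-1.86 ± 0.24, adjusted p = 0.0389). Car4, a membrane carbonic anhydrase of enterocytes, fell by 1.79 ± 0.30 on the log2 scale (adjusted p = 0.0404), and the block ended this call (0.0511). Fst is the activin inhibitor follistatin (-1.94 ± 0.41, adjusted p = 0.0482, and 0.069 with the block), and Thpo is thrombopoietin (-1.94 ± 0.33, adjusted p = 0.0404). Tppp, a tubulin-binding protein, and Enho, a secreted peptide known from energy metabolism, changed by -1.71 ± 0.23 and -1.69 ± 0.36. Acta1, the actin of skeletal muscle, stood at 2.76, 6.71 and 7.79 CPM in TNFdARE and at 71.4, 20 and 89.9 CPM in WT (-3.40 ± 0.67, adjusted p = 0.0481, and 0.0684 with the block). Other skeletal muscle markers are given with the tissues that a dissection can carry along. Among the most abundant decreases, Muc3, a membrane mucin of the brush border, stood at 747, 1182 and 939.7 CPM in TNFdARE and at 2104, 2067 and 1946 CPM in WT (-1.09 ± 0.18, adjusted p = 0.0404). Ceacam1 stood at 1876, 2150 and 2223 CPM in TNFdARE and at 3203, 2931 and 3100 CPM in WT (-0.56 ± 0.12, adjusted p = 0.0486, and 0.0738 with the block). Ezr, the linker of the microvillus membrane to actin (-0.91 ± 0.19, adjusted p = 0.0459, and 0.0571 with the block), Cs, the citrate synthase (-0.47 ± 0.10, adjusted p = 0.0459, and 0.0661 with the block), and Canx, a chaperone of the endoplasmic reticulum (-0.46 ± 0.09, adjusted p = 0.0449, and 0.059 with the block), lost their calls with the block.

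Genes of sodium transport were mostly lower where called. In a list of the pump, sodium channels and SGK kinases drawn up after the values were seen, 1 rose, 4 fell and 10 did not pass (2 and 5 with the block, 3 and 7 without replicate 2), with a median of -0.32 over 15 tested. Atp1b1, a beta chain of the pump, stood at 454, 747 and 619.6 CPM in TNFdARE and at 1174, 1045 and 1242 CPM in WT (-0.93 ± 0.19, adjusted p = 0.0459, and 0.0511 with the block). Sgk1 (ENSMUSG00000019970, chromosome 10, 21882184 to 21999903), a kinase induced by aldosterone and glucocorticoids that activates sodium transport, fell from 272, 289 and 371 to 79.1, 115 and 97.2 CPM (-1.67 ± 0.18, adjusted p = 0.0389). Sgk2, a relative of it, stood at 22.3, 25.6 and 23.4 CPM in TNFdARE and at 47.3, 58.2 and 51.7 CPM in WT (-1.14 ± 0.10, adjusted p = 0.0305). In these 3 genes the TNFdARE libraries lay below the lowest WT library, as in every gene called lower. Fxyd2, a regulatory chain of the pump known mainly from kidney, was the member that rose, at 4.85, 3.93 and 5.69 CPM in TNFdARE and at 0.933, 0.421 and 0.474 CPM in WT (2.96 ± 0.34, adjusted p = 0.0389). Of 10 glucocorticoid and mineralocorticoid genes 0 rose, 2 fell and 8 did not pass (0 and 4 with the block, 0 and 6 without replicate 2), with a median of -0.67. Besides Sgk1 this was Tsc22d3, the glucocorticoid-induced leucine zipper GILZ, at 36.7, 42.4 and 55.2 CPM in TNFdARE and at 82.4, 78.4 and 89.9 CPM in WT (-0.90 ± 0.15, adjusted p = 0.0404). The receptors Nr3c1 and Nr3c2 had -0.34 ± 0.14 and -0.91 ± 0.26 (adjusted p = 0.154 and 0.0816).

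Fucosylation genes were listed after the values were seen, and 3 of 13 fell with 0 higher (0 and 3 with the block, 0 and 6 without replicate 2). Fut2, the fucosyltransferase that decorates gut epithelium for commensal bacteria, stood at 9.33, 8.48 and 13.4 CPM in TNFdARE and at 45.4, 25.7 and 28.6 CPM in WT (-1.68 ± 0.28, adjusted p = 0.0404). Gmds, an enzyme of GDP-fucose synthesis, stood at 174, 235 and 176 CPM in TNFdARE and at 360.3, 325 and 304 CPM in WT (-0.76 ± 0.14, adjusted p = 0.0412). Slc35c1, which carries GDP-fucose into the Golgi, stood at 119, 147 and 133 CPM in TNFdARE and at 189.5, 200.3 and 207 CPM in WT (-0.58 ± 0.09, adjusted p = 0.0404). None of these 3 overlapped between genotypes, as was so for every called gene, and the other 10 tested members did not pass. Among 15 heat shock proteins and co-chaperones 0 rose, 3 fell and 12 did not pass (0 and 4 with the block, 0 and 5 without replicate 2), with a median of -0.44. Hsph1 stood at 40.2, 43.9 and 39.9 CPM in TNFdARE and at 83.8, 127 and 190.1 CPM in WT (-1.69 ± 0.29, adjusted p = 0.0412). Dnaja1 stood at 57.3, 61.1 and 60.0 CPM in TNFdARE and at 94.8, 107 and 139 CPM in WT (-0.93 ± 0.14, adjusted p = 0.0404), and Hspd1, the mitochondrial chaperonin, fell as well (-0.44 ± 0.08, adjusted p = 0.0404, and 0.0511 with the block). Hspa1b, the inducible Hsp70, stood at 5.40, 6.58 and 8.95 CPM in TNFdARE and at 12.7, 30.7 and 36.2 CPM in WT (-1.93 ± 0.42, adjusted p = 0.0531), and the WT values of Hsph1 and Hspa1b differed among themselves by more than 2-fold. Of 18 genes of endoplasmic reticulum stress and secretion 0 passed (0 and 1 with the block, 0 and 1 without replicate 2, 0 and 2 with DESeq2, 0 and 5 at an unadjusted p under 0.05), with a median of -0.24. All 18 had a negative fold change with TMM scaling.

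Nuclear-encoded genes of the respiratory chain had small negative fold changes. Of 21 tested 0 rose, 3 fell and 18 did not pass (0 and 3 with the block, 0 and 18 without replicate 2), with a median of -0.34, and all 21 had a negative fold change with TMM scaling. Cycs, cytochrome c, stood at 54.8, 52.2 and 53.9 CPM in TNFdARE and at 106, 83.2 and 92.7 CPM in WT (-0.81 ± 0.10, adjusted p = 0.0389). Cox5a stood at 123, 139 and 124 CPM in TNFdARE and at 186, 188 and 166 CPM in WT (-0.49 ± 0.09, adjusted p = 0.0404). Uqcrfs1 stood at 108, 123 and 112 CPM in TNFdARE and at 170.1, 158 and 148 CPM in WT (-0.48 ± 0.08, adjusted p = 0.0404). The 3 TNFdARE libraries lay close together in each of these genes. Of 7 mitochondrially encoded genes 0 passed (0 and 0 with the block, 0 and 6 without replicate 2, 0 and 2 with DESeq2, 0 and 2 at an unadjusted p under 0.05), with a median of -0.35. Of 16 genes of fatty acid oxidation and ketones 0 rose, 1 fell and 15 did not pass (0 and 3 with the block, 0 and 9 without replicate 2), with a median of -0.37, the called one being Cpt2, a carnitine transferase (-0.54 ± 0.11, adjusted p = 0.0445). Of 26 xenobiotic enzymes and regulators 0 rose, 2 fell and 24 did not pass (0 and 5 with the block, 1 and 14 without replicate 2), with a median of -0.62. Besides Cyp4b1 this was Cyp3a13, at 71.7, 131 and 99.6 CPM in TNFdARE and at 211, 237 and 257 CPM in WT (-1.22 ± 0.22, adjusted p = 0.0411). Among 14 retinoid genes 2 rose, 0 fell and 12 did not pass (2 and 2 with the block, 2 and 5 without replicate 2), with a median of -0.63. Of the 2 that rose, Stra6, a retinol importer, stood at 35.7, 6.04 and 24.1 CPM in TNFdARE and at 1.67, 0.632 and 0.880 CPM in WT (4.36 ± 0.78, adjusted p = 0.0435). The enterocyte gene Rbp2 had -0.88 ± 0.21 and Aldh1a1, an enzyme that makes retinoic acid, -1.68 ± 0.42 (adjusted p = 0.0553 and 0.0654). Scd1 (ENSMUSG00000037071, chromosome 19, 44394455 to 44407879), the desaturase that makes monounsaturated fatty acids, is in no list and was chosen after its values were seen, as 1 of the 8 genes that shared the smallest adjusted p. It stood at 224, 239 and 192 CPM in TNFdARE and at 83.5, 95.7 and 97.9 CPM in WT (1.24 ± 0.11, adjusted p = 0.0305), with replicate 2 the highest of its genotype.

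Other lists had few calls. Of 20 glycolysis and hypoxia genes 1 rose, 0 fell and 19 did not pass (3 and 0 with the block, 4 and 2 without replicate 2), with a median of 0.24, the called one being Egln3, an oxygen sensor (1.04 ± 0.19, adjusted p = 0.0412). Of 19 cholesterol synthesis and uptake genes 0 passed (4 and 0 with the block, 7 and 1 without replicate 2, 4 and 0 with DESeq2, 6 and 1 at an unadjusted p under 0.05), with a median of 0.24. Of 12 iron and heme genes 3 rose, 0 fell and 9 did not pass (3 and 0 with the block, 7 and 3 without replicate 2), with a median of 0.60: Hp, Steap4, a metalloreductase (2.83 ± 0.31, adjusted p = 0.0389), and Trf, transferrin (1.16 ± 0.22, adjusted p = 0.0412, and 0.0508 with the block). Of 11 metallothioneins and zinc transporters 0 rose, 1 fell and 10 did not pass (0 and 0 with the block, 0 and 4 without replicate 2), with a median of -0.55, the called one being the zinc exporter Slc30a1 (-0.96 ± 0.20, adjusted p = 0.0472, and 0.0581 with the block). Of 16 prostaglandin genes 2 rose, 0 fell and 14 did not pass (3 and 2 with the block, 7 and 1 without replicate 2), with a median of 0.11. Ptgs2, the inducible cyclooxygenase, stood at 25.1, 14.4 and 20.1 CPM in TNFdARE and at 9.33, 6.88 and 8.53 CPM in WT (1.27 ± 0.23, adjusted p = 0.0404). Hpgds, a prostaglandin D2 synthase, stood at 26.2, 20.1 and 26.7 CPM in TNFdARE and at 11, 11.2 and 9.01 CPM in WT (1.23 ± 0.15, adjusted p = 0.0389). Of 16 circadian clock genes 1 rose, 1 fell and 14 did not pass (2 and 2 with the block, 2 and 4 without replicate 2), with a median of -0.12: Bhlhe40, a repressor that also acts in myeloid and T cells (1.05 ± 0.17, adjusted p = 0.0404), and Cry1 (-0.57 ± 0.11, adjusted p = 0.0447).

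The 4 fibrillar and basement membrane collagen chains called in the list below rose by less than 2-fold. Of 20 listed collagens and lysyl oxidases 6 rose, 0 fell and 14 did not pass (2 and 0 with the block, 10 and 1 without replicate 2), with a median of 0.30. Col1a2 stood at 435, 436 and 442 CPM in TNFdARE and at 285, 303 and 244 CPM in WT (0.66 ± 0.10, adjusted p = 0.0404). Col5a2 stood at 123, 136 and 120.0 CPM in TNFdARE and at 91.7, 93.2 and 89.1 CPM in WT (0.47 ± 0.07, adjusted p = 0.0404). Loxl3, a collagen cross-linking enzyme, stood at 11.9, 10.8 and 13.2 CPM in TNFdARE and at 7.20, 7.02 and 6.03 CPM in WT (0.83 ± 0.14, adjusted p = 0.0404, and 0.0511 with the block). Col1a1 and Lox lost their calls with the block as well (adjusted p = 0.0459 and 0.0459, and 0.0525 and 0.0505 with it), and Col3a1, the chain of type III collagen, had 0.15 ± 0.24 (adjusted p = 0.712). Outside the list, and named after its values were seen, Col22a1, a collagen of tissue junctions, rose by 2.71 ± 0.38 (adjusted p = 0.0389). Of 17 inflammatory fibroblast genes 4 rose, 0 fell and 13 did not pass (7 and 0 with the block, 10 and 2 without replicate 2), with a median of 0.65. Mmp3, stromelysin 1, stood at 152, 21.8 and 60.5 CPM in TNFdARE and at 4.00, 2.67 and 2.10 CPM in WT (4.74 ± 0.82, adjusted p = 0.0412). Timp1 stood at 14.1, 4.07 and 8.47 CPM in TNFdARE and at 0.867, 0.983 and 1.35 CPM in WT (3.05 ± 0.50, adjusted p = 0.0404). Tnfsf11, the gene of RANK ligand, stood at 15.0, 5.42 and 12.9 CPM in TNFdARE and at 1.40, 0.211 and 1.08 CPM in WT (3.61 ± 0.64, adjusted p = 0.0412). All 3 were low in WT, and TNFdARE replicate 2 was the lowest of its genotype. Of 17 metalloproteinases and inhibitors 4 rose, 2 fell and 11 did not pass (5 and 2 with the block, 7 and 2 without replicate 2), with a median of 0.50. The 2 that fell were Adamts15, a proteoglycan-cleaving protease (-1.02 ± 0.21, adjusted p = 0.0475), and Timp3 (-0.54 ± 0.10, adjusted p = 0.0412, and 0.0526 with the block). Of 23 Wnt, R-spondin and BMP ligands and antagonists 1 rose, 1 fell and 21 did not pass (1 and 0 with the block, 3 and 6 without replicate 2), with a median of -0.24. Both calls, Fst and Fstl1 (adjusted p = 0.0513 with the block), were lost in that fit, in which 1 other member was called. Of 14 gut smooth muscle genes 0 passed (0 and 0 with the block, 0 and 11 without replicate 2, 0 and 0 with DESeq2, 0 and 3 at an unadjusted p under 0.05), with a median of -0.34. Of 16 enteric neuron and glia genes 0 passed (0 and 0 with the block, 0 and 7 without replicate 2, 0 and 0 with DESeq2, 0 and 5 at an unadjusted p under 0.05), with a median of -0.40.

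Several butyrophilin-like genes of the gut epithelium, which select gamma-delta T cells, lie beside Tnf on chromosome 17. Of 5 tested 0 rose, 3 fell and 2 did not pass (0 and 2 with the block, 0 and 3 without replicate 2), with a median of -0.54. Btnl1 stood at 91.5, 132 and 109 CPM in TNFdARE and at 167, 186 and 174 CPM in WT (-0.66 ± 0.14, adjusted p = 0.0459). Btnl6 stood at 212, 272 and 240.0 CPM in TNFdARE and at 332, 356 and 368 CPM in WT (-0.54 ± 0.11, adjusted p = 0.0447). Btnl4 stood at 74.8, 96.3 and 90.3 CPM in TNFdARE and at 133, 126 and 121 CPM in WT (-0.54 ± 0.10, adjusted p = 0.0442, and 0.0512 with the block). The 3 genes were lower in every TNFdARE library, and least so in replicate 2. The region as a whole was looked at after these values were seen. Within 1 Mb of Tnf, Tnf itself left out, 18 of 106 tested genes were called (17.0%), 7 higher and 11 lower, against 5.05% of 99 genes at 1 to 5 Mb, 6.41% of 312 at 5 to 20 Mb, 3.28% of 244 farther out on the chromosome and 5.63% of 14700 on the others. Neighbours are not independent of each other, and the region holds the class I and Btnl families, whose copies can share reads. H2-Bl (ENSMUSG00000073406, 36080115 to 36084223, annotated as a polymorphic pseudogene), 0.88 Mb from Tnf, stood at 41.0, 64.8 and 56.3 CPM in TNFdARE and at 11.6, 10.4 and 11.5 CPM in WT (2.27 ± 0.18, adjusted p = 0.0305). It was one of the 8 genes with the smallest adjusted p, and TNFdARE replicate 2 was the highest of its genotype. Gm11127, a class I-like gene 0.86 Mb away, stood at 1.53, 2.71 and 2.71 CPM in TNFdARE and at 11.5, 13 and 14.4 CPM in WT (-2.48 ± 0.25, adjusted p = 0.0389), and Gm8909 at 27.5, 40.2 and 34.9 against 76.9, 67.0 and 87.3 CPM (-1.17 ± 0.16, adjusted p = 0.0389). H2-Q1, H2-Q2 and H2-T3 changed by -0.77 ± 0.14, -0.62 ± 0.10 and -0.84 ± 0.17. Aif1 and Lst1, myeloid genes next to Tnf, rose by 2.26 ± 0.38 and 2.63 ± 0.52 (adjusted p = 0.041 and 0.0459). In the synovium, where 23.8% of all tested genes were called, 5 of the 18 had enough counts to be tested and 1 was called, Aif1. The sources used here do not name the genetic background of the allele, so an effect of Tnf and an effect of linked sequence cannot be told apart.

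**Figure D4:**
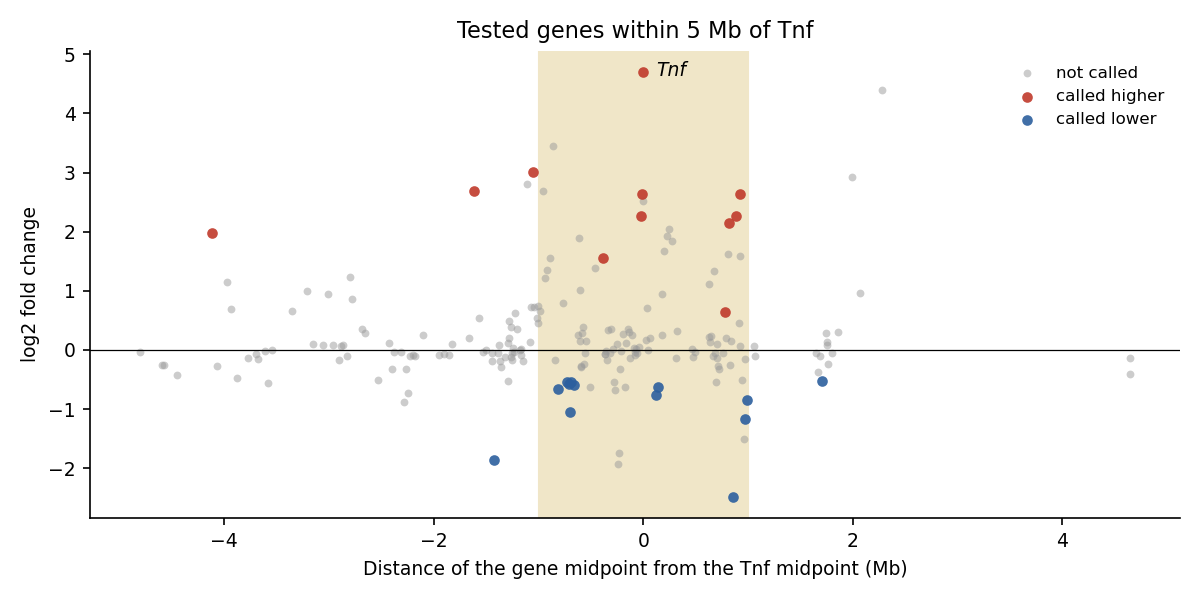
Log2 fold change of every tested gene within 5 Mb of Tnf against the distance of its midpoint from that of Tnf, in Mb, with called genes in red (higher) and blue (lower), and the shaded band marking 1 Mb on either side. Called genes are denser in the band (18 of 106 without Tnf) than from 1 to 5 Mb (5 of 99).

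TNFdARE replicate 2 stood nearest to WT in most called genes. Among the 637 genes called higher, replicate 2 was the lowest of the 3 in 568 and replicate 1 the highest in 489, and among the 242 called lower replicate 2 was the highest in 190. The mean of replicates 1 and 3 over replicate 2 was at most 1.5 in 277 of the 637, between 1.5 and 3 in 288 and above 3 in 72, with a median of 1.65. As long as replicate 2 lies above WT, this ratio cannot exceed the fold of replicates 1 and 3 over WT, so a small increase holds it low whatever the gene group, and no order of groups is read from it. Of the 10 called neutrophil genes 7 were above 3 (median 4.65), as were 5 of the 6 called genes of recruited macrophages (5.24). Of the 6 called collagen genes 5 were at most 1.5 (0.99), as were all 5 called laminin genes (1.11) and 6 of 8 called genes of the regenerating epithelium (1.14). The laminin list was drawn up after the values were seen, so its evenness is a description only. Mmp9 was the neutrophil-list gene with the smallest step (1.49). Adamts7, a metalloproteinase of vessel walls and cartilage, Abcg3, a transporter of the ABCG family, and Tmem86a, a lysoplasmalogenase, had the same smallest adjusted p as Scd1 and were named after their values were seen. Adamts7 stood at 13.4, 11.8 and 14 CPM in TNFdARE and at 3.47, 4.07 and 3.59 CPM in WT. Abcg3 stood at 25.8, 21.4 and 27.6 CPM in TNFdARE and at 8.07, 8.21 and 9.62 CPM in WT. Tmem86a stood at 49.6, 44.0 and 44.9 CPM in TNFdARE and at 20.6, 23.3 and 21.0 CPM in WT. In each, replicate 2 lay close to replicates 1 and 3, which a choice by the smallest adjusted p favours. Ttn, the giant sarcomere protein titin (ENSMUSG00000051747, chromosome 2, 76703980 to 76982547), shared that p too and stood at 15.6, 8.61 and 19.7 CPM in TNFdARE and at 0.467, 0.281 and 0.610 CPM in WT (4.98 ± 0.43, adjusted p = 0.0305). The summed level of leukocyte markers in replicate 2, 984 CPM, lay between those of replicates 1 and 3 and the WT libraries, and its part in the gradient was not tested.

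**Figure D5:**
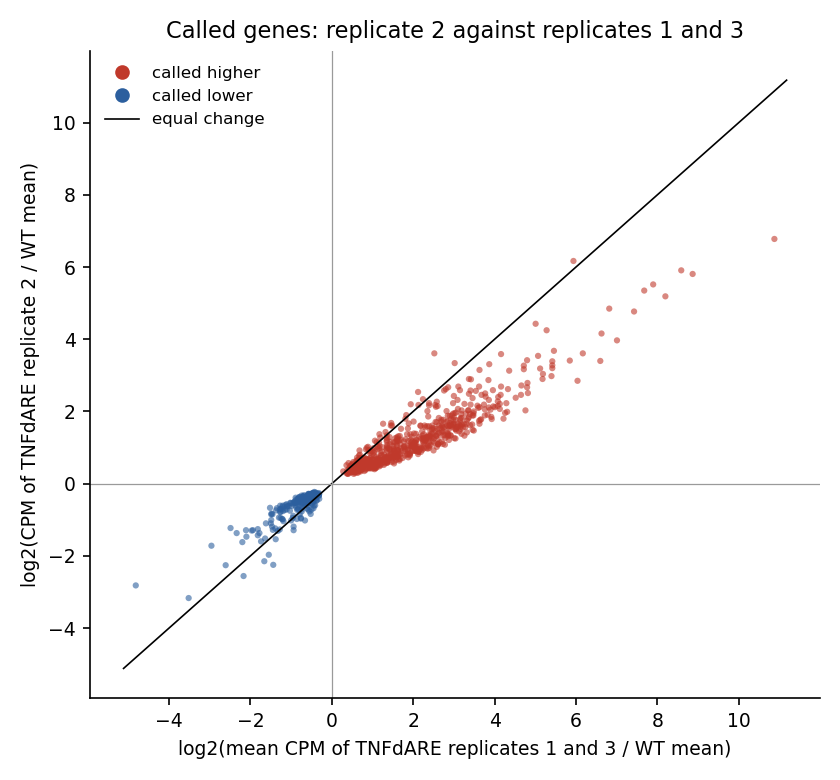
Each point is 1 of the 879 called genes, with the log2 ratio of the mean CPM of TNFdARE replicates 1 and 3 to the WT mean on the x axis and the log2 ratio of TNFdARE replicate 2 to the WT mean on the y axis, red for genes called higher and blue for genes called lower. Most points lie between the line of equal change and 0, since replicate 2 was the lowest TNFdARE library in 568 of 637 genes called higher and the highest in 190 of 242 called lower.

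Tissue that a dissection can carry along was checked by marker lists. Skeletal muscle markers summed to 11.5, 20.6 and 20.2 CPM in TNFdARE and 87.9, 41.0 and 108 CPM in WT. Acta1 made up most of the sum in WT replicates 1 and 3, and it was the 1 of 3 tested that fell. All 3 tested had a negative fold change, with a median of -0.9, and in 2 the genotypes did not overlap. With the block, which ended the call of Acta1, 0 members were higher and 1 lower (0 and 1 without replicate 2). Some muscle genes that were not tested or not listed went the other way. Tnni2, a troponin with too few counts to be tested, had 18, 7 and 13 counts in TNFdARE and 2, 3 and 3 in WT. Neb, the sarcomere protein nebulin, is outside the list, was named after its values were seen and rose by 2.00 ± 0.28 (adjusted p = 0.0389). Exocrine pancreas markers summed to 8.17, 47.3 and 19.8 CPM in TNFdARE and 57.3, 48.9 and 75.6 CPM in WT, and of 2 tested 0 passed (0 and 0 with the block, 0 and 0 without replicate 2, 0 and 0 with DESeq2, 0 and 0 at an unadjusted p under 0.05), with a median of -0.75. Adipose markers summed to 173, 235 and 177 CPM in TNFdARE and 183, 158 and 157 CPM in WT, and of 9 tested 0 passed (1 and 0 with the block, 2 and 1 without replicate 2, 4 and 0 with DESeq2, 4 and 0 at an unadjusted p under 0.05), with a median of 0.77. Of 3 mesothelial markers 0 passed (0 and 0 with the block, 0 and 1 without replicate 2, 0 and 1 with DESeq2, 0 and 1 at an unadjusted p under 0.05), with a median of 0.35, and of 4 red blood cell markers 0 passed (0 and 0 with the block, 0 and 0 without replicate 2, 0 and 0 with DESeq2, 0 and 0 at an unadjusted p under 0.05), with a median of 0.14. Among colon and stomach markers 1 had enough counts to be tested: Car1, a carbonic anhydrase of the colon, stood at 52.2, 31.3 and 0.881 CPM in TNFdARE and at 11.7, 1388 and 1.69 CPM in WT (-4.05 ± 2.42, adjusted p = 0.304), with WT replicate 2 far above the other 5 libraries. The part of these tissues in the changes above was not tested.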

How the data were processed

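RNA-seq libraries of ileum were made with a stranded poly-A kit and sequenced as single reads, per the labels' protocols. Reads were trimmed with cutadapt 1.15 and aligned with Bowtie2 2.3.3.1 to GRCm38, per the submitters' processing notes. Which tool counted the reads, and with which strand setting, the sources used here do not say. A table of raw counts was deposited for 46603 genes, and 98.9% of its identifiers matched GENCODE vM21. The authors also deposited FPKM values for 17046 genes. No FPKM value is 0, although 2645 ileum values belong to a count of 0, so the FPKM table was used only for alternatives, with limma on log2(FPKM + 0.1 or 1).

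Counts were filtered with filterByExpr, scaled with TMM and tested with edgeR 4.0.16 (robust quasi-likelihood F test, R 4.3.3) on the 6 ileum libraries with genotype as the only term and Benjamini-Hochberg adjustment over all 15462 tested genes. Standard errors are the absolute fold change over the square root of F. The scripts were tested on simulated data. Depth ran from 14267834 to 15700665 counts, and a count of 0 was read as at most 3 counts. Replicate pairs of a genotype differed by 12.1 to 127 times their counting variance, so no library was counted as a duplicate. Libraries of the 2 genotypes with the same number deviated together (r = 0.232, 0.257 and 0.157 over 10469 autosomal genes). TNFdARE replicate 3 with WT replicate 1 had 0.156, and the other unmatched pairs had -0.281 to -0.027. Sex followed the numbers, but the labels do not say what they mark. The block was therefore an alternative, and the main test was unpaired. Alternatives were DESeq2 1.42.0, RLE factors, library size alone, no and a stricter count filter (CPM of at least 1 in 3 libraries), limma-voom (limma 3.58.1), all 12 libraries, the replicate block and each library left out.

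Members and gene lists were chosen with earlier results of these data known. Named by rule were Tnf, the 12 largest and 8 most abundant changes in each direction among called genes whose log2 CPM averaged 1 or more, and up to 4 called members per list with the smallest adjusted p. Predicted genes, pseudogenes and immunoglobulin or T cell receptor segments were left out of the 12 and the 8. Where a list had no call, its most abundant member and that with the smallest adjusted p were taken. Some genes selected by this rule are not reported here. Other members named were chosen after their values were seen. Promoters and the Tnf transcript came from RefSeq (GRCm38.p6) and GENCODE vM21.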

Additional observations from a re-analysis of the deposited data

How the results depend on the processing

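Of the 879 calls, 637 higher and 242 lower, DESeq2 gave 2692 (1710 and 982), library size alone 1379 (1218 and 161), all 12 libraries together 2722 (1827 and 895), limma-voom 0 (0 and 0, with 4649 at an unadjusted p under 0.05), FPKM with a pseudocount of 0.1 gave 1 (1 and 0) and with 1 gave 0 (0 and 0). The cause of these differences was not tested. With the replicate block 1128 genes passed (852 and 276), 676 of them among the 879. RLE factors, no filter and the stricter filter gave 899, 902 and 877. Leaving out 1 library gave 0 to 4633 calls, 0 to 2609 higher and 0 to 2024 lower, the highest without TNFdARE replicate 2 and 0 without each WT library.

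No called gene changed direction under any of the 16 alternatives except Ceacam1, which had -0.56 in counts and 0.87 and 0.86 in the FPKM fits with pseudocounts of 0.1 and 1. Among 1104 recomputed list medians 17 had the other sign, in the lists of decay factors, stem cell genes, intraepithelial lymphocyte genes, type I interferon targets, cell death genes, mesothelial markers, red blood cell markers and laminins. Depth limits statements on genes near 0 in WT, whose ratios rest on a few counts.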
